A study of Mus musculus with 20 samples.

Results

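The NRF2 antioxidant pathway was followed through 20 mouse liver libraries by 10 of its genes. They were taken by name, with earlier results of these data known, out of 55359 gene identifiers in the count tables. The list holds the transcription factor gene Nfe2l2, its inhibitor gene Keap1, and the target genes Gclc, Gclm, Slc7a11, Txnrd1, Srxn1, Nqo1, Hmox1 and G6pdx. All 10 passed the filter on low counts and were tested, Slc7a11 only through its tumour libraries.

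RNA came from frozen liver of male wild-type mice aged 35 weeks, whose strain is spelled C56BL/6 in the labels. The treatment protocol, which is the same for every library, describes 50 µL of 0.5% 7,12-dimethylbenz(a)anthracene (DMBA, a carcinogen) put on the skin of the back on postnatal day 4 to 5, so DMBA is part of all 5 groups as far as the labels say. Each group has 4 libraries, numbered mouse 1 to 4. The first group ate a normal diet (12 kcal% fat) and did not exercise, and its tissue is labelled neither tumour nor non-tumour. The other 4 groups ate a high-fat diet with 60 kcal% fat and weighed over 45 g: non-tumour and tumour pieces of non-exercised mice, and non-tumour and tumour pieces of exercised mice. Below, pieces called high-fat non-tumour are those of non-exercised mice unless exercise is named. Exercise was treadmill running from 20 weeks of age, with 5 weeks of training from 10 m/min and then 10 weeks of 20 min runs at 18 m/min, 5 days a week. The high-fat mice were killed within 2 h of the last run. There was no exercised group on the normal diet and no tumour group on it. The study was set up to examine what exercise does to tumour promotion in this model.

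NRF2, the protein of Nfe2l2, is a transcription factor that pairs with small MAF proteins and binds antioxidant response elements, short DNA sites near genes for glutathione synthesis, thioredoxin reduction, quinone reduction, haem breakdown and NADPH supply. KEAP1, an adaptor of a CUL3 ubiquitin ligase, holds NRF2 in the cytoplasm and has it degraded until oxidants or electrophiles modify KEAP1. Because this control acts on the protein, the mRNA of Nfe2l2 and Keap1 does not measure NRF2 activity. In liver the pathway is known for protection against toxic drugs, and in some liver cancers for being switched on permanently by mutation of either gene. No mutation was looked at here.

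Promoter sequences of the genes are shown first. Windows of Nfe2l2, Gclm, Txnrd1 and G6pdx hold a match to the same short run of letters, and that of Slc7a11 to another. RefSeq windows from 250 bases before to 50 bases after the start site, on the build GRCm38.p6 and not the GRCm39 of the counts, were found for 8 of the 10 genes (10 windows), all but Gclc and Hmox1. Capitals mark the letters searched on both strands, which were chosen with the sequences in view: TGACNNNGC, the core of the antioxidant response element (ARE), TGATGCAA, the core of the amino acid response element bound by ATF4, and TGANTCA, the site of AP-1 factors, which also lies inside some AREs. The stretches are chr3:50443614-50443713 on the minus strand (Slc7a11), chr2:152105404-152105493 on the plus strand (Srxn1), chr2:75704874-75704913 on the minus strand (Nfe2l2), chr3:122245407-122245446 on the plus strand (Gclm), chr10:82859098-82859137 on the plus strand (Txnrd1) and chrX:74428914-74428953 on the minus strand (G6pdx), each printed 5′ to 3′ along its gene and ending before the start site.
Slc7a11: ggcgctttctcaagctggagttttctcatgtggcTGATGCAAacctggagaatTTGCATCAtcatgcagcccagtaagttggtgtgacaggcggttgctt
Srxn1: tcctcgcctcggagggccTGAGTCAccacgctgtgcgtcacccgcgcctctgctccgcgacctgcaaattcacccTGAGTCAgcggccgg
Nfe2l2: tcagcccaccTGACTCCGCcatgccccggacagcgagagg
Gclm: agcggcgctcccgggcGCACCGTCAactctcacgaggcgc
Txnrd1: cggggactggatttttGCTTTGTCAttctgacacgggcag
G6pdx: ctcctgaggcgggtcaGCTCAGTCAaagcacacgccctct

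The ARE core letters were found in 5 genes. In Nfe2l2 they read along the gene, 240 to 232 bases before the start. In Gclm (134 to 126 bases before), in 1 of the windows of Txnrd1 (92 to 84 before) and in G6pdx (57 to 49 before) they lie on the opposite strand, and Srxn1 has a match just past its start site that is not printed. The same letters occur in 12.4% of all 32851 promoter windows. The ATF4 core was found in Slc7a11 alone of the matched genes, as an inverted pair 66 to 59 and 47 to 40 bases before the start, and occurs in 0.895% of all windows. Srxn1 was the only matched gene with the AP-1 letters, at 102 to 96 and at 45 to 39 bases before its start, against 7.81% of all windows. These matches describe letters in a window and were not tested as binding sites.

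Libraries held 16471378 to 20271948 counts. Hepatocyte markers checked the tissue: Alb, the albumin gene, took 4.06% to 7.36% of counts in the normal-diet and non-tumour libraries and 9.05% to 15.9% in tumour libraries. Of the 6 hepatocyte markers 2 rose and 2 fell in non-exercised tumours and 2 rose and 1 fell in exercised tumours, with Tat and Cps1 (named after their values were seen) the 2 that fell in the former. Markers of other cell types had counts in all groups, and the levels of some differed between groups. The summed level of 7 markers of monocyte-derived and lipid-associated macrophages was 42.0 to 69 CPM (read counts scaled to a common library size) on the normal diet. It was 74.9 to 256 CPM in non-tumour pieces without exercise and 69.4 to 184 in those with it, 487 to 1593 in non-exercised tumours and 179 to 1598 in exercised tumours. With diet 5 of these 7 rose, while in tumours of each arm only Cd9 and Spp1 did, and Spp1 alone averaged 862 and 600.4 CPM there. The sum of 6 pericentral hepatocyte markers was 4875 to 12460 CPM in all non-tumour groups and 155 to 4471 in tumours. Mouse 3 of each tumour group lay nearest to the non-tumour libraries on the first principal component. In bulk tissue, fewer cells of a type and less RNA per cell cannot be told apart, and the part of these shifts in the results below was not tested.

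Per kilobase of exon (RPKM), the glutathione synthesis gene Gclc was the most abundant of the 10 in every group, with group means of 130.5 to 188 RPKM, and the cystine transporter gene Slc7a11 the least, with 0.00634 to 0.532. Gclm, at 28.4 to 45.8 RPKM, was the next in the normal-diet and both non-tumour groups, while Srxn1 lay above it in both tumour groups and Nfe2l2 in non-exercised tumours. Txnrd1 (19.4 to 26.2), Srxn1 (14.5 to 46.0), Nfe2l2 (14.3 to 32.5), Keap1 (12.3 to 13.7) and Hmox1 (9.48 to 18.5) were intermediate in their group means, and Nqo1 (3.60 to 10.3) and G6pdx (1.58 to 8.24) were low. All levels below are in CPM, scaled by TMM library sizes.

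**Figure D1:**
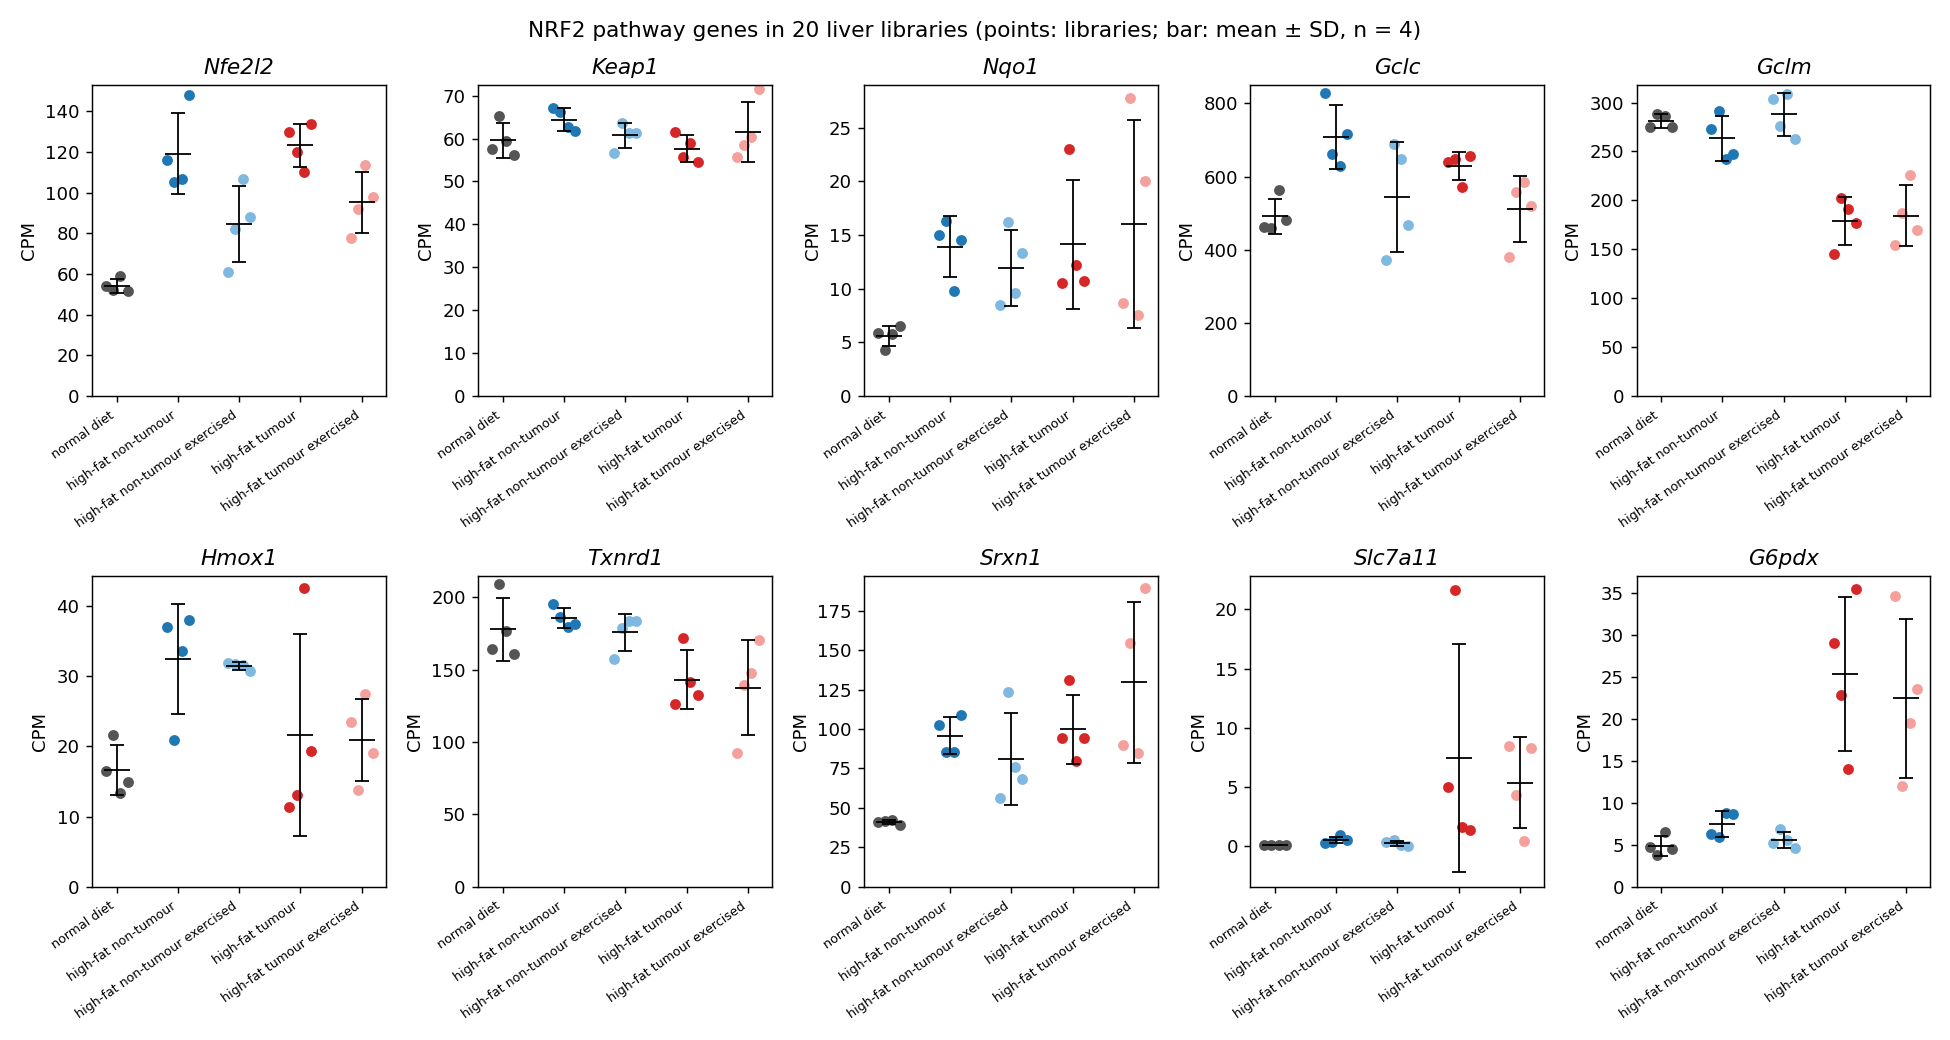
CPM of each of the 10 genes (vertical axes, linear, a separate scale per gene) in the 5 groups (horizontal axis); points are libraries and bars the mean ± SD of 4. Nfe2l2, Nqo1 and Srxn1 sit lowest in all normal-diet libraries, Gclm is lowest in tumours, and G6pdx in every tumour library lies above every non-tumour library.

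With the high-fat diet, 5 of the 10 genes rose in non-tumour liver and none fell. They were Nfe2l2, Srxn1, Nqo1, Hmox1 and Gclc, with rises of 1.44-fold (Gclc) to 2.49-fold (Nqo1). Over all 14428 genes tested, 25.9% were called at an adjusted p under 0.05, 14% as higher and 11.9% as lower. At an unadjusted p under 0.05 there were the same 5 genes, against 39% of all genes. The median log2 difference of the 10 genes was 0.79, against 0.01 over all genes. Keap1, Gclm and Txnrd1 differed by 0.11, -0.09 and 0.06 on the log2 scale and were not called. The high-fat and normal-diet ranges lay apart for 5 of the 10 genes, against 33.1% of all genes.

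Between exercised and non-exercised mice, none of the 10 genes was called in either tissue by edgeR or by DESeq2, where 0.0139% of all genes were called in non-tumour pieces and 0.0208% in tumours. At an unadjusted p under 0.05 there were 2 genes in non-tumour pieces, Nfe2l2 and Gclc (8.34% of all genes), and 1 in tumours, Nfe2l2 (8.68% of all genes). In neither tissue did the ranges of any of the 10 lie apart, against 4.81% and 3.76% of all genes. The estimates were below 0 for 9 of the 10 genes in non-tumour pieces, with a median of -0.23 on the log2 scale against -0.0084 over all genes. In tumours they were below 0 for 6 of 10, with a median of -0.05 against 0.0144 over all genes. The 10 estimates of a tissue come from the same libraries, so they are not independent. They ran from -1.16 ± 1.19 (Slc7a11) to 0.13 ± 0.12 (Gclm) in non-tumour pieces and from -0.47 ± 0.77 (Slc7a11) to 0.38 ± 0.25 (Srxn1) in tumours. A p that misses the threshold with 4 mice a group does not show that exercise left these genes as they were.

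Between tumour and non-tumour pieces, called genes lay on both sides of 0, and their counts were near the shares of all genes. In non-exercised mice Slc7a11 and G6pdx rose and Gclm and Txnrd1 fell, while 35.8% of all genes were called, 18% higher and 17.8% lower. In exercised mice Slc7a11, G6pdx and Srxn1 rose and Gclm fell, while 34.6% of all genes were called, 18.6% higher and 16% lower. At an unadjusted p under 0.05 there were 4 and 5 of the 10 genes, against 45.6% and 44.4% of all genes. The 3 genes called in both arms, each in the same direction, were Slc7a11, G6pdx and Gclm. Ranges lay apart for 5 of the 10 genes in non-exercised mice (34.8% of all genes) and for 3 in exercised mice (28.6% of all genes). The diet, the exercise comparison in non-tumour pieces and the tumour comparison in non-exercised mice share the 4 high-fat non-tumour libraries, so their values are not independent.

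**Figure D2:**
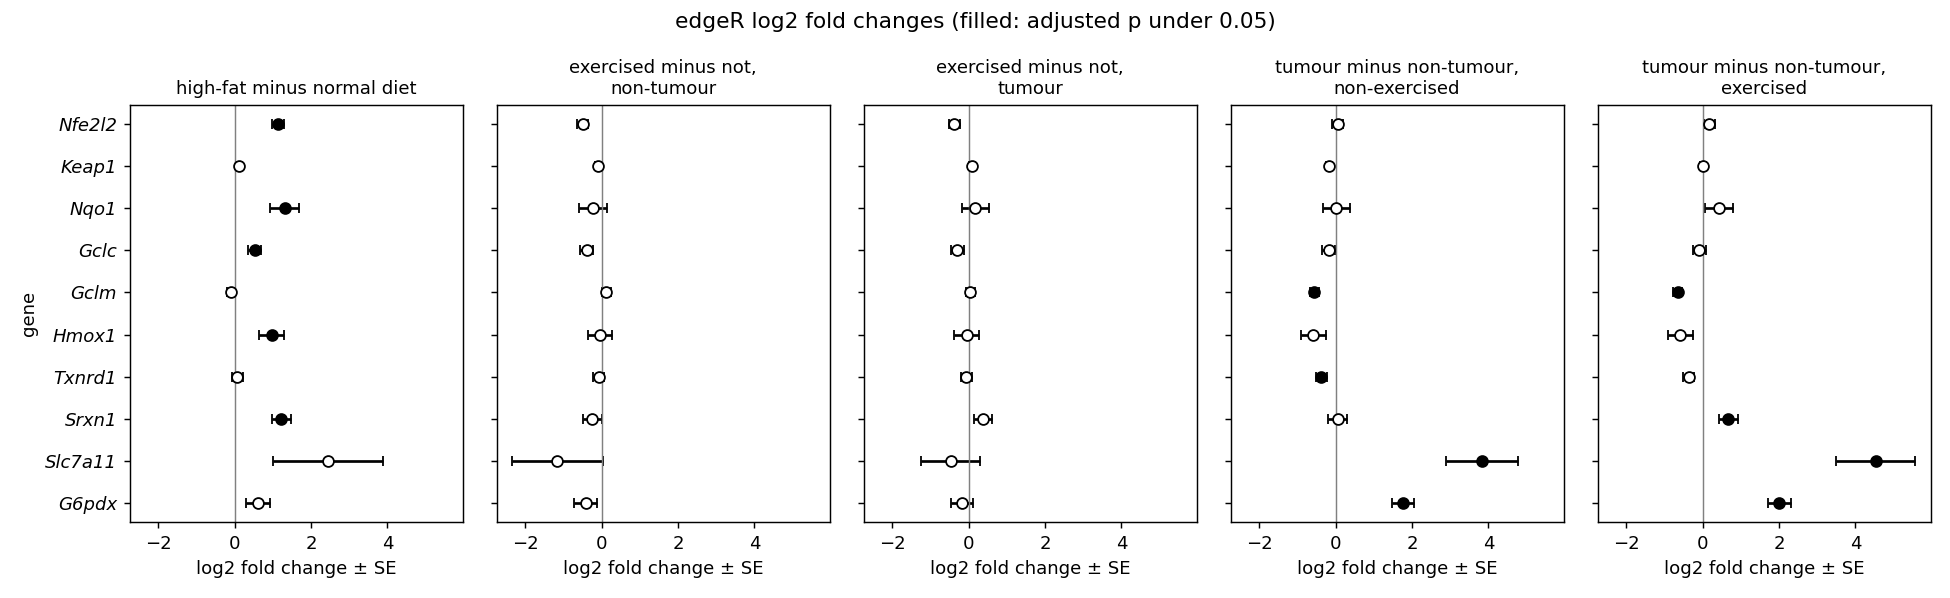
Log2 fold change ± SE from edgeR (horizontal axis) of the 10 genes (vertical axis) in 5 comparisons, with filled points at an adjusted p under 0.05. Filled points are 5 for diet, all to the right of 0, none for exercise, and 4 in each tumour comparison, on both sides of 0.

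The regulators come first, of which Nfe2l2 is overlapped by another annotated gene on its own strand. Nfe2l2 (chr2:75505857-75534985, GRCm39, minus strand) had 54.2, 51.9, 58.9 and 51.5 CPM in mice 1 to 4 on the normal diet and 116, 105, 107 and 148 CPM in high-fat non-tumour pieces, so the groups did not overlap. The rise was 2.20-fold (log2 1.14 ± 0.15 SE, adjusted p = 9.85e-05, edgeR), larger than the spread between mice and called under every alternative tried. Exercised non-tumour pieces had 61.1, 82.2, 107 and 88.1 CPM, between the other 2 groups and overlapping the non-exercised group at its low end. The difference with exercise was -0.49 ± 0.15 (unadjusted p = 0.00331, adjusted p = 0.268) and did not pass. In tumours, Nfe2l2 had 129.8, 119.9, 110.1 and 134 CPM without exercise and 77.5, 92.2, 114 and 97.7 with it. The tumour difference with exercise was -0.37 ± 0.15 (unadjusted p = 0.0199, adjusted p = 0.482), again not called. Tumour and non-tumour pieces of the same arm overlapped in both arms, with log2 differences of 0.05 ± 0.15 and 0.17 ± 0.15.

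Keap1 (chr9:21141026-21150657, minus strand), the sensor and repressor of NRF2, varied least of the 10 genes. Its group means lay between 57.6 ± 3.14 CPM in non-exercised tumours and 64.4 ± 2.60 CPM in high-fat non-tumour pieces (SD, n = 4). All 20 libraries fell between 54.4 and 71.6 CPM. The 4 non-exercised tumours (61.4, 55.8, 58.9 and 54.4 CPM) lay just below the 4 non-tumour pieces of that arm (67.1, 66.2, 62.7 and 61.7 CPM), with a log2 difference of -0.16 ± 0.08 (adjusted p = 0.110), which did not pass. No comparison called Keap1. While Nfe2l2 rose with diet, the diet difference of its repressor was 0.11 ± 0.08 on the log2 scale (adjusted p = 0.293).

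Among the genes of glutathione synthesis, Gclc and Gclm, the catalytic and the modifier subunit of glutamate-cysteine ligase, differed in the comparisons that called them. Gclc (chr9:77661817-77701767, plus strand) had 463, 460.2, 562 and 481 CPM on the normal diet and 828, 662, 628 and 718 CPM in high-fat non-tumour pieces, with no overlap. The rise was 1.44-fold (0.53 ± 0.17, adjusted p = 0.0291). This call was lost when normal-diet mouse 1, 2 or 4 or high-fat mouse 1 or 4 was left out (adjusted p up to 0.0904). Exercised non-tumour pieces spread from 371 to 690.2 CPM, across both of these groups (-0.38 ± 0.17, unadjusted p = 0.0368, adjusted p = 0.569). Tumours had 639, 648, 570.5 and 657 CPM without exercise and 380.5, 558, 585 and 519.9 with it, and no tumour or exercise comparison was called.

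Gclm (chr3:122039206-122064381, plus strand, overlapped by Gm6061 on the same strand) was at 274.7 to 288 CPM on the normal diet and 242 to 291 CPM in high-fat non-tumour pieces, which overlapped. Non-exercised tumours had 145, 202, 192 and 177 CPM, all below the 4 non-tumour pieces at 274, 291, 242 and 248. Exercised tumours had 154.5, 187, 226 and 169.5 CPM, all below the exercised non-tumour pieces at 303, 276, 309 and 263. The fall was to 0.679 of the non-tumour level in non-exercised mice (-0.56 ± 0.12, adjusted p = 0.00149) and to 0.641 in exercised mice (-0.64 ± 0.12, adjusted p = 0.000716). Both calls held under every alternative tried. Gclc, its partner subunit, was not called in either tumour comparison (-0.17 ± 0.17 and -0.09 ± 0.17).

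Slc7a11 (chr3:49846975-50398063, minus strand, overlapped by Gm37692 and Gm37498 on the same strand) encodes xCT, which imports the cystine that glutathione is made from. On the normal diet it was near absent, with 2, 1, 2 and 1 counts in the 4 libraries (0.117, 0.0582, 0.115 and 0.0636 CPM). High-fat non-tumour pieces had 5, 6, 18 and 11 counts, and exercised non-tumour pieces had 5, 10, 2 and 0. In non-exercised tumours the counts were 89, 422, 34 and 27 (5.00, 21.6, 1.58 and 1.40 CPM), each above every non-tumour library of that arm. In exercised tumours they were 140, 75, 9 and 157 (8.47, 4.28, 0.451 and 8.27 CPM), where mouse 3 lay below exercised non-tumour mouse 2 at 0.492 CPM. The level was thus higher in tumours of both arms but differed more than 10-fold between tumours of 1 arm.

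The tumour difference of Slc7a11 was 3.84 ± 0.93 on the log2 scale in non-exercised mice (adjusted p = 0.00456) and 4.53 ± 1.04 in exercised mice (adjusted p = 0.00358). Without tumour mouse 2 the first was 2.36 and still called. Slc7a11 passed the filter on low counts only through tumour libraries, where it was high. Both tumour differences were also called with no filter on low counts. From summed counts, 572 against 40, the ratio of count shares was 13.1 (95% exact interval 9.50 to 18.5) in non-exercised mice, and from 381 against 17 it was 21.0 (12.9 to 36.4) in exercised mice. These intervals cover counting error only, and PCR copies are not independent molecules. The diet difference was 2.44 ± 1.44 (adjusted p = 0.220) and not called, although the ranges lay apart. In a fit of only the 2 diet groups it was called (adjusted p = 0.00785). Summed counts of 40 against 6 gave a diet ratio of 6.82 (2.87 to 19.7).

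Of the thioredoxin arm, Txnrd1 (chr10:82669785-82733546, plus strand), the cytosolic thioredoxin reductase, overlaps Eid3 on its own strand. Its normal-diet libraries spanned 161 to 209 CPM and its high-fat non-tumour libraries 179.6 to 196, inside that range. Non-exercised tumours had 126, 172, 142 and 132 CPM, all below the non-tumour pieces at 196, 186, 179.6 and 182. The fall was to 0.770 of the non-tumour level (-0.38 ± 0.14, adjusted p = 0.0479). It stood just inside the threshold: it was lost with RLE scaling (adjusted p = 0.0613), with no filter on low counts (adjusted p = 0.0795) and when any of the 8 libraries but tumour mouse 2 was left out (adjusted p up to 0.137). Exercised tumours had 92.1, 140, 147 and 170.1 CPM against 157, 179, 184 and 183 in non-tumour pieces, which overlapped. That difference was -0.36 ± 0.14 (adjusted p = 0.0619) and not called, whereas it was called with the mouse as a block (-0.40, adjusted p = 0.0367), with DESeq2 (adjusted p = 0.0437) and without tumour mouse 4 (-0.48, adjusted p = 0.0199).

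Srxn1 (chr2:151947436-151953296, plus strand), sulfiredoxin, repairs over-oxidised peroxiredoxins. It was even across the normal diet, with 41.0, 41.6, 42.0 and 39.3 CPM. High-fat non-tumour pieces had 102, 85.7, 85.7 and 109 CPM, all above them. The rise was 2.34-fold (1.22 ± 0.25, adjusted p = 0.00235) and was called under every alternative tried. Exercised non-tumour pieces had 56.5, 124, 75.6 and 68.4 CPM, still above all normal-diet libraries, with mouse 2 above every non-exercised non-tumour piece. Tumours had 94.0, 131, 79.9 and 94.2 CPM without exercise and 89.8, 154.5, 84.9 and 189.8 with it. Srxn1 was not called in non-exercised tumours (0.06 ± 0.25, adjusted p = 0.873), while in exercised tumours it was 1.60-fold higher with overlapping ranges (0.68 ± 0.25, adjusted p = 0.0410). That call was lost without exercised non-tumour mouse 1, 3 or 4 or tumour mouse 2 or 4 (0.44 to 0.63, adjusted p up to 0.172), in a fit of the 2 groups alone (adjusted p = 0.165) and with no filter (adjusted p = 0.111). The arms were not shown to differ (interaction 0.62 ± 0.35, unadjusted p = 0.0926, adjusted p = 1).

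Nqo1 (chr8:108114857-108129838, minus strand), a quinone reductase often read as a sign of NRF2 activity, had 5.89, 4.25, 5.73 and 6.49 CPM on the normal diet. High-fat non-tumour pieces had 14.98, 16.3, 9.78 and 14.5 CPM, all above the normal diet. The rise was 2.49-fold (1.31 ± 0.38, adjusted p = 0.0168), and it missed the threshold only with no filter on low counts (adjusted p = 0.0533). Exercised non-tumour pieces had 8.45, 16.2, 9.58 and 13.3 CPM. Non-exercised tumours had 10.5, 23.0, 12.2 and 10.8 CPM, where mouse 2 stood apart, and exercised tumours had 8.65, 27.8, 7.51 and 20.0, split between a low and a high pair. The same 2 exercised tumours, mice 2 and 4, were also the high pair for Srxn1. No tumour or exercise comparison called Nqo1, with log2 differences of 0.02 ± 0.36 and 0.43 ± 0.36 between tumour and non-tumour pieces.

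Hmox1 (chr8:75820249-75827217, plus strand), haem oxygenase, breaks down haem and is abundant in macrophages that clear red blood cells. It had 16.4, 21.6, 13.4 and 14.9 CPM on the normal diet and 37.0, 21.0, 33.6 and 38.1 CPM in high-fat non-tumour pieces, where mouse 2 fell inside the normal-diet range. The rise was 1.95-fold (0.97 ± 0.33, adjusted p = 0.0385). It was lost when normal-diet mouse 1, 3 or 4 or high-fat mouse 1, 3 or 4 was left out (adjusted p up to 0.0973) and with no filter (adjusted p = 0.106). Exercised non-tumour pieces were nearly equal, at 32.0, 31.7, 31.6 and 30.8 CPM. Tumours had 11.3, 13.1, 42.6 and 19.4 CPM without exercise and 23.5, 13.8, 27.5 and 19.1 with it. Non-exercised tumour mouse 3 was thus the highest of all 20 libraries in a group otherwise low. The tumour differences were -0.58 ± 0.32 (adjusted p = 0.171) and -0.59 ± 0.32 (adjusted p = 0.173) and not called. Without that tumour the first was -1.15 and called (adjusted p = 0.00128), and in a fit of the 2 exercised groups alone the second was -0.61 and called (adjusted p = 0.0399).

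The summed level of Kupffer cell markers moved alongside Hmox1 with diet and in tumours, while single markers differed. The sum of 8 markers was 246, 291, 207 and 197 CPM on the normal diet, 354, 316, 339.7 and 345 in high-fat non-tumour pieces and 308 to 431 in exercised non-tumour pieces. In non-exercised tumours it was 94.7, 96.0, 388 and 182 CPM, with mouse 3 the highest as for Hmox1, and in exercised tumours 173, 115, 261 and 186. With diet 3 of the 8 markers were called as higher (Adgre1, Csf1r and C1qa, which other macrophages also express) and none as lower. The diet estimates of Cd163 (-1.44 ± 0.81, adjusted p = 0.199) and Timd4 (-0.64 ± 0.66, adjusted p = 0.497) were below 0. Those of Clec4f, Vsig4 and Marco were above 0, and none of these was called. In tumours of each arm 4 of 8 fell. None of the 8 was at 0 in all libraries of a group. The part of these cells in the Hmox1 values was not tested.

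G6pdx (chrX:73453089-73472800, minus strand) encodes glucose-6-phosphate dehydrogenase, the entry enzyme of the pentose phosphate pathway and a source of NADPH for glutathione and thioredoxin reductases. The normal diet gave 4.67, 3.78, 6.54 and 4.45 CPM and high-fat non-tumour pieces 6.23, 5.94, 8.83 and 8.66, which overlapped (0.61 ± 0.31, adjusted p = 0.148). In a fit of only these 2 groups the diet difference was called (adjusted p = 0.0350). Non-exercised tumours had 29.0, 22.8, 14.1 and 35.5 CPM, and exercised tumours had 34.7, 12.0, 19.6 and 23.5. All 8 tumours lay above all 12 other libraries, the highest of which was at 8.83 CPM. The rise was 3.41-fold in non-exercised mice (1.77 ± 0.29, adjusted p = 0.000305) and 4.01-fold in exercised mice, where non-tumour pieces had 5.22, 6.84, 5.60 and 4.66 CPM (2.00 ± 0.30, adjusted p = 0.000215). Both calls held under every alternative tried. The near-identical copy G6pd2 is annotated too, so reads that match both could be left out of these counts.

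The difference between the arms in the tumour effect was not called for any of the 10 genes by edgeR or DESeq2, nor below an unadjusted p of 0.05, where 2.03% of all genes were. In all, 0% of genes passed after adjustment. Interaction estimates ran from -0.08 ± 0.17 (Gclm) to 0.69 ± 1.40 (Slc7a11), so for Slc7a11 a difference of several-fold either way was not detectable with these libraries.

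Ordering the groups by mean CPM gave neighbours whose ranges did not overlap in 5 places only: between the normal diet and exercised non-tumour pieces for Nfe2l2, Nqo1 and Srxn1, between exercised tumours and high-fat non-tumour pieces for Gclm, and between high-fat non-tumour pieces and exercised tumours for G6pdx. Nfe2l2 ran from the normal diet (54.1 ± 3.43 CPM) through exercised non-tumour (84.5 ± 18.8), exercised tumour (95.2 ± 14.9) and non-exercised non-tumour pieces (119 ± 19.9) to non-exercised tumours (123 ± 10.6; SD, n = 4 each). For Hmox1, Gclc, Txnrd1, Keap1 and Slc7a11 every pair of neighbours overlapped.

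Of the other genes of the pathway, 6 lists with 54 genes were counted from the same fit, and 53 were tested. With diet 13 rose and 5 fell, against 14% and 11.9% of all genes, with a median log2 difference of 0.11. In tumours 4 rose and 27 fell in non-exercised mice (median -0.35), and 8 rose and 25 fell in exercised mice (median -0.31), against all-gene medians of -0.01 and 0.01. Over all genes 18% rose and 17.8% fell in the former comparison and 18.6% and 16% in the latter. With exercise none was called by edgeR or DESeq2 in either tissue, where 3 genes in non-tumour pieces and 4 in tumours had an unadjusted p under 0.05, against 8.34% and 8.68% of all genes.

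**Figure D3:**
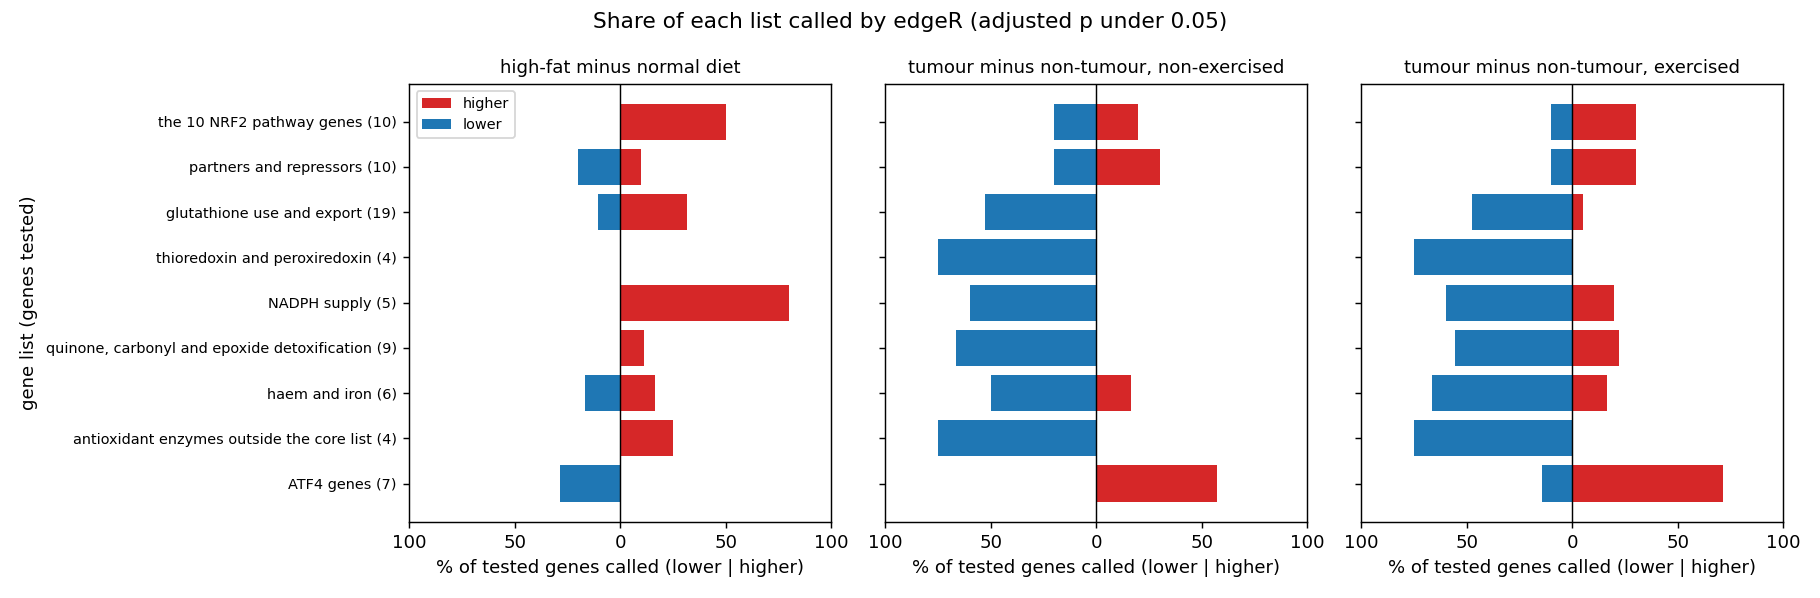
Percent of the tested genes of each list (horizontal axis, lower to the left and higher to the right) called by edgeR in 3 comparisons, with the lists and their number of tested genes on the vertical axis. With diet the called genes of the NADPH list, 4 of 5, lie on the higher side, and in both tumour comparisons most called genes of the glutathione, thioredoxin, detoxification and iron lists lie on the lower side.

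With diet, most called genes of NADPH supply and of glutathione use were higher. Of 5 genes of NADPH supply 4 rose and none fell, among them Pgd of the pentose phosphate pathway (70.4 against 36.3 CPM, 0.96 ± 0.22, adjusted p = 0.00531), Tkt, transketolase (0.52 ± 0.13, adjusted p = 0.00897), and Taldo1, transaldolase (0.32 ± 0.10, adjusted p = 0.0267). Of 19 glutathione genes 6 rose and 2 fell. Gss, which makes glutathione from the product of the Gclc and Gclm enzyme, rose (0.59 ± 0.13, adjusted p = 0.00435), as did the transferase Gstm2 (1.59 ± 0.30, adjusted p = 0.00140), while Gstp1 fell from 607 to 212 CPM (-1.52 ± 0.26, adjusted p = 0.000675). Transferases of these families have near-identical copies, and their counts are uncertain. Cbr3, a carbonyl reductase, was the only 1 of 9 detoxification genes that rose, from 0.723 to 4.79 CPM (2.72 ± 0.66, adjusted p = 0.00709), and none fell. Of 6 genes on the haem and iron list Fth1, the ferritin heavy chain, rose (0.52 ± 0.13, adjusted p = 0.00752) and Fech, which makes haem, fell (-0.34 ± 0.08, adjusted p = 0.00460). None of the 4 thioredoxin and peroxiredoxin genes was called.

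Among 10 partners and repressors, 1 rose and 2 fell with diet, near the 14% and 11.9% of all genes. Single genes of this list were not followed through the alternatives. Mafk, a small MAF that pairs with NRF2, rose from 13.3 to 23.8 CPM (0.85 ± 0.19, adjusted p = 0.00431). Bach1, a repressor that competes with NRF2 at AREs, fell from 51.3 to 31.5 CPM (-0.70 ± 0.25, adjusted p = 0.0446), and Cul3, the ligase that KEAP1 serves, fell slightly (-0.32 ± 0.08, adjusted p = 0.00581). In tumours 3 rose in each arm, while 2 fell without exercise and 1 with it. Over all genes 18% rose and 17.8% fell without exercise, and 18.6% and 16% with it. Bach1 was among those that rose (0.82 ± 0.25, adjusted p = 0.0160, and 0.76 ± 0.25, adjusted p = 0.0238), as was Mafk (0.50 ± 0.19 in non-exercised mice, adjusted p = 0.0436, and 0.73 ± 0.19 in exercised mice, adjusted p = 0.00656). Mafg, another small MAF, fell in both arms (-0.61 ± 0.14, adjusted p = 0.00254, and -0.58 ± 0.14, adjusted p = 0.00399).

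In tumours, where Gclm fell, many but not all genes of glutathione use and of the thioredoxin list fell too. Of 19 glutathione genes 10 fell and none rose in non-exercised mice, and 9 fell and 1 rose in exercised mice. Gpx1, the main liver glutathione peroxidase, fell from 1996 to 509 CPM (-1.97 ± 0.34, adjusted p = 0.000400) and from 1997 to 693 CPM (-1.53 ± 0.34, adjusted p = 0.00261). Abcc3, an exporter of conjugates, fell in both arms (-0.83 ± 0.15 and -0.59 ± 0.15), and Abcc4, a related exporter, was the gene that rose in exercised mice, from 3.33 to 9.53 CPM (1.52 ± 0.38, adjusted p = 0.00545). Of 4 thioredoxin and peroxiredoxin genes 3 fell in each arm. Prdx6, a peroxiredoxin, fell from 490.1 to 248 CPM (-0.98 ± 0.15, adjusted p = 0.000162) and from 544 to 286.5 CPM (-0.93 ± 0.15, adjusted p = 0.000323), and Txn1, thioredoxin, and Prdx1 fell by less (-0.66 to -0.43 over both arms).

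Of the 9 detoxification genes 6 fell and none rose in non-exercised mice, and 5 fell and 2 rose in exercised mice. Ephx1, the microsomal epoxide hydrolase, fell by 0.83 ± 0.15 and by 0.60 ± 0.15 on the log2 scale. Of the haem and iron list 3 and 4 of 6 genes fell and 1 rose in each arm, with the ferritin light chain gene Ftl1 from 1259 to 589 CPM (-1.10 ± 0.17, adjusted p = 0.000174) and from 1258 to 710.4 CPM (-0.82 ± 0.17, adjusted p = 0.00153). The gene that rose was Osgin1, named for oxidative stress rather than haem or iron. It went from 140.9 to 356.9 CPM in non-exercised mice (1.34 ± 0.31, adjusted p = 0.00314) and from 90.3 to 203.1 CPM in exercised mice. Of the 5 genes of NADPH supply other than G6pdx 3 fell in each arm. They were Me1, malic enzyme (-1.34 ± 0.33 and -0.88 ± 0.33), Taldo1 (-0.55 ± 0.10 and -0.37 ± 0.10) and Idh1, isocitrate dehydrogenase (-0.31 ± 0.12 and -0.43 ± 0.12). Pgd, a later enzyme of the pentose phosphate pathway, rose in exercised mice (59.0 to 106 CPM, 0.84 ± 0.22, adjusted p = 0.00809). Of 4 antioxidant enzymes outside the core list, 3 fell in each arm. They were Cat, catalase (-1.02 ± 0.19 and -0.93 ± 0.19), Sod1 (-0.73 ± 0.13 and -0.62 ± 0.13) and Sod2 (-0.90 ± 0.14 and -0.77 ± 0.14), the superoxide dismutases of cytosol and mitochondria. Mitochondrially encoded transcripts took 2.56% to 4.50% of counts in tumours and 4.54% to 5.99% in the other libraries, and the part of that shift here was not tested.

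Slc7a11 is known to be switched on by ATF4, the factor of the amino acid stress response, as well as by NRF2, so 7 ATF4 genes were counted too. In tumours 4 of 7 rose and none fell in non-exercised mice, and 5 rose and 1 (Chac1) fell in exercised mice. Over all genes 18% rose and 17.8% fell in the former comparison and 18.6% and 16% in the latter. Atf4 itself was not called in non-exercised tumours (0.29 ± 0.15, adjusted p = 0.149, edgeR). Psat1, of serine synthesis, was at 1.36 to 1.99 CPM in high-fat non-tumour pieces and at 80.0, 54.3, 17.4 and 24.9 CPM in non-exercised tumours (4.76 ± 0.54, adjusted p = 5.19e-05). In exercised mice it went from 0.433 to 2.12 CPM in non-tumour pieces to 56.4, 37.4, 12.5 and 29.9 CPM in tumours (4.98 ± 0.57, adjusted p = 5.08e-05). Phgdh, the first enzyme of serine synthesis, rose by 5.01 ± 0.69 and 5.49 ± 0.75. Tumour mouse 3, nearest to the non-tumour libraries on the first principal component, was the lowest of its group for Psat1 in both arms. For Slc7a11 it was the lowest of the exercised tumours and the second lowest of the non-exercised ones. The highest non-exercised tumour was mouse 1 for Psat1 (80.0 CPM) and mouse 2 for Slc7a11 (21.6 CPM). Among exercised tumours mouse 1 was highest for both (56.4 and 8.47 CPM). The part of ATF4 in the Slc7a11 values was not tested. With diet none of the 7 rose and 2 fell, Asns, asparagine synthetase, from 5.19 to 0.553 CPM (-3.21 ± 0.88, adjusted p = 0.0142) and Chac1, which breaks down glutathione, from 13.9 to 5.97 CPM (-1.22 ± 0.34, adjusted p = 0.0136). Over all genes 14% rose and 11.9% fell with diet.

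**Figure D4:**
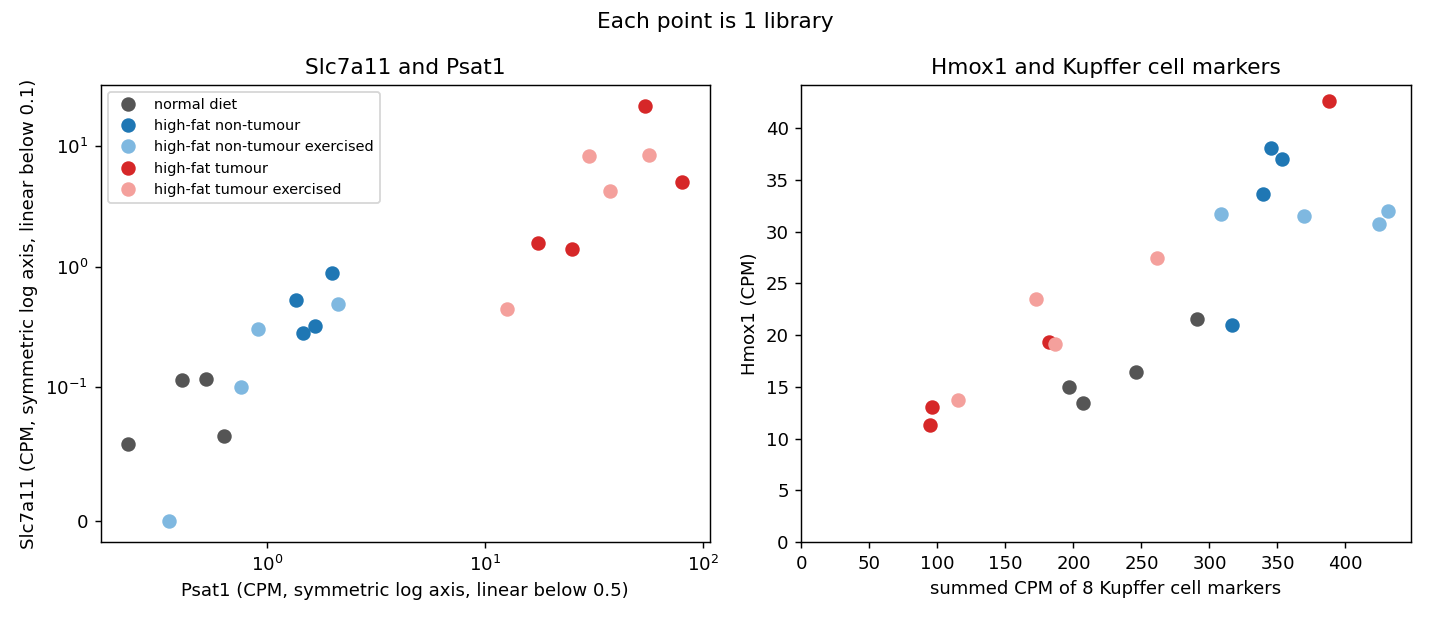
Each point is 1 library: left, Slc7a11 against Psat1 in CPM on symmetric log axes, and right, Hmox1 in CPM against the summed CPM of 8 Kupffer cell markers on linear axes. On the left all 8 tumours lie at 12.5 CPM of Psat1 or more and the other 12 libraries at 2.12 or less, and on the right non-exercised tumour mouse 3 is the high tumour point (388 and 42.6 CPM).

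Likeness of pattern was measured as the root mean square difference of centred log2 CPM over the 20 libraries, for the 4 genes whose group means varied most. For G6pdx the nearest of 12687 genes were Pold4 (0.28), Pfkfb4 (0.28) and Npdc1 (0.31), where the median gene differed by 1.08. Srxn1 was nearest to Dusp8 (0.25), Tbc1d24 (0.28) and Mycl (0.29), with a median of 0.70. Nqo1 was nearest to Samd9l (0.40), Dusp8 (0.40) and Aen (0.41), with a median of 0.75. Slc7a11 had no close match, with Plch1 (0.86), Cand2 (0.89) and Cfap44 (0.89) nearest and a median of 2.17. Among the 10 genes themselves, the nearest pairs were Gclm and Txnrd1 (0.22), Keap1 and Txnrd1 (0.22), Keap1 and Gclc (0.28), Gclc and Txnrd1 (0.32) and Nqo1 and Srxn1 (0.32), and Gclm and Slc7a11 were farthest apart (2.45). Genes that vary little come out near each other on this measure, and Keap1, Txnrd1, Gclc and Gclm had the lowest SD of group means.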

How the data were processed

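Poly(A) RNA libraries of 20 samples were made with a stranded kit, per the labels' protocols. Each deposited file holds raw counts, which the authors made with featureCounts 2.0.5 over exons (strand setting 2, GENCODE vM27, GRCm39), per the file headers. Trim Galore 0.6.10 and STAR 2.7.11a came before, per the submitters' processing notes. Options for multi-mapping reads and for reads over several genes were not found in any source used here.

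Counts were filtered with filterByExpr (minimum count 10, minimum total 15), which left 14428 genes, scaled by TMM, and fitted with edgeR 4.0.16 (robust quasi-likelihood, R 4.3.3, limma 3.58.1) as 5 group means over 20 libraries with 15 residual degrees of freedom. Tests were two-sided, adjusted over all genes by Benjamini-Hochberg, and called at an adjusted p under 0.05. SE is the size of the log2 fold change divided by the root of F. CPM use TMM-scaled totals, log2 CPM a prior count of 2, and RPKM the exon length in the files. In the shallowest library 1 CPM is 15.7 counts. Symbols matched 52083 of 55359 identifiers. The procedure was tested on simulated counts.

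The 10 genes, the 8 pathway and 10 marker lists and the motifs were chosen with earlier results of these data known. The text names the 10 genes always, and of each other list up to 3 called genes with the smallest p in a comparison. Exceptions are a gene named by the rule in 1 comparison and given for another, and counts of few genes that are spelled out. The latter genes, chosen after their values were seen, are Adgre1, Csf1r, C1qa, Clec4f, Timd4, Vsig4, Cd163, Marco, Cd9, Spp1, Osgin1, Tat and Cps1. Atf4 was also named after its values were seen. Mouse numbers come from the titles, and tumour and non-tumour pieces with the same number in 1 arm are read as the same mouse. Their deviations from the group means correlated at -0.08 to 0.21 (non-exercised) and 0.08 to 0.44 (exercised). P-values set the group differences against the spread between these libraries. The main fit has no mouse term, so pieces read as the same mouse entered it as independent libraries. Alternatives were other scalings, DESeq2 1.42.0, filters, groups in the fit, a mouse block and leaving out each library.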

Additional observations from a re-analysis of the deposited data

Results flagged for a closer look

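In non-exercised tumours, mouse 2 had 23.0 CPM of Nqo1 while the other 3 had 10.5 to 12.2, a gap of 0.863 of the group's range, above Dixon's 95% limit for 4 samples. Chance alone gives such a value in about 1 of every 20 groups of 4 values. Of the 50 groups checked (10 genes in 5 groups) this was the only 1 flagged, no more than chance gives. The same tumour was the highest of its group for Slc7a11 (21.6 CPM) and Srxn1 (131 CPM), and it was not the highest for G6pdx (22.8 CPM).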

How the results depend on the processing

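The count of the 10 genes called with diet was 5, and it was 3 with no filter on low counts, 3 to 5 when 1 library was left out and 7 with the mouse number as a replicate block or in a fit of the 2 groups alone (G6pdx and Slc7a11 added). The other counts of called genes, of the 10 and of the 53 other pathway genes tested, stayed within 1.5 times the values given, with 13 to 22 other genes with diet, 23 to 33 in non-exercised and 22 to 34 in exercised tumours, leaving out 1 library included. Over the alternatives for single genes 758 values kept their direction and side of the threshold, 29 lost the call, 9 gained it and 23 changed sign, none of the last called to begin with. Sign changes under the replicate block were Hmox1 with exercise, 0.010 in non-tumour pieces and 0.078 in tumours, and Nqo1 in non-exercised tumours, -0.0059, and in a fit of the exercised groups alone Keap1 in tumours, -0.0017. With 1 library left out, the log2 differences with exercise ran from -0.20 to 0.048 for Hmox1 in non-tumour pieces, and in tumours from -0.23 to 0.50 for Nqo1, -0.087 to 0.10 for Gclm, -0.26 to 0.51 for Hmox1 (0.51 without non-exercised tumour mouse 3), -0.18 to 0.074 for Txnrd1, -0.82 to 1.001 for Slc7a11 (1.001 without non-exercised tumour mouse 2) and -0.48 to 0.032 for G6pdx. The tumour differences ran from -0.31 to 0.14 for Nqo1 and -0.094 to 0.15 for Srxn1 in non-exercised mice, and from -0.061 to 0.056 for Keap1 and -0.24 to 0.033 for Gclc in exercised mice. The causes were not tested.

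For diet and exercise the samples share only a mouse number: their deviations correlated at -0.03 to 0.05 (normal against high-fat diet, none of 4 best with its own number), -0.39 to 0.03 (exercise, non-tumour pieces, none of 4) and 0.03 to 0.57 (exercise, tumours, 3 of 4). The block changed no call beyond those given. Depth limits Slc7a11, at 0 to 18 counts in every library without tumour.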

Other observations

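Cell type markers were counted from the same fit by edgeR. With diet, of 6 hepatocyte markers none rose and 3 fell, of 7 markers of monocyte-derived and lipid-associated macrophages 5 rose and none fell, of 5 stellate cell and fibroblast markers 2 rose, of 3 tested erythroid markers 2 rose and of 5 endothelial markers 2 fell. Of 6 pericentral hepatocyte, 4 cholangiocyte, 3 T and NK cell and 2 tested neutrophil markers none was called with diet. In tumours of non-exercised mice 2 hepatocyte markers rose and 2 fell, 2 pericentral markers fell, 2 of the 7 macrophage markers rose, and 1 cholangiocyte marker rose and 1 fell. In the same comparison 1 stellate and 1 endothelial marker rose and 1 erythroid marker fell. In tumours of exercised mice 2 hepatocyte markers rose and 1 fell, 4 pericentral markers fell, and 2 macrophage, 1 cholangiocyte, 1 stellate and 2 endothelial markers rose, while 1 erythroid marker fell. The summed T and NK cell markers were low everywhere, at 0.513 to 5.96 CPM, and Ly6g of the neutrophil list had no count in the 4 normal-diet libraries.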
